A study of Mus musculus with 12 samples.

Results

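A set of 9 genes through which mature astrocytes look after neurons was followed across 12 mouse brain samples. The members were picked by name from the 55862 genes of the deposited expression table, by a rule that names the genes and sets no threshold on their values, and each name matched 1 row. They cover the uptake of glutamate (Slc1a2, Slc1a3) and its turnover to glutamine (Glul), the handling of potassium and water (Kcnj10, Aqp4), the coupling of astrocytes through gap junctions (Gja1, Gjb6) and the enzymes Aldh1l1 and Aldoc. The labels give C57BL/6 for all samples, the methods C57BL/6J for the mice of both NPC groups, and the samples fell into 4 groups of 3. ASTs were astrocytes from the cortex of newborn pups, grown as a monolayer in medium with serum and taken at day 0 of incubation. A-iSCs were the same kind of astrocytes after 5 days as floating spheres on agarose. P56-NPCs were a cell suspension dissociated from the subependymal zone of the adult brain (postnatal day 56). P0-NPCs were likewise a cell suspension, from the hippocampus of pups at postnatal day 0. ASTs and A-iSCs were thus cultures. Both NPC groups are described as dissociated tissue that was not sorted for a cell type as far as the methods tell. The heading of that section names primary culture for them too, and P56-NPCs were taken up in culture medium after centrifugation. No time in culture is stated for either NPC group. Nothing in the labels tells whether the 3 samples of a group came from separate cultures or animals, so p-values measure the spread between these samples, which may be technical.

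Astrocytes take up the glutamate that neurons release and convert it to glutamine, which they hand back to neurons. They also draw away the potassium set free by active neurons, spread it through gap junctions to neighbouring cells, and move water at the endfeet around blood vessels. Most genes for these tasks are known to be low in newborn brain and in serum-grown culture and to rise as astrocytes mature in the brain. The comparisons ask where the astrocytes in spheres stand on this scale, with the monolayer as the negative control and the brain suspensions as the positive controls of the study.

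Upstream sequence is shown for 5 members: the transporter pair, the gap junction pair and Aldoc, the member with the largest log2 fold change between A-iSCs and ASTs among the 8 tested. The sequences are RefSeq's on build GRCm38.p6 and are read 5′ to 3′ towards the RefSeq start. They stop at the base before that start or, for Slc1a2 and Aldoc, where annotated exons of other transcripts begin. The starts used for Slc1a2, and for Aldh1l1 in the counts below, lie inside the span of the gene. Those windows are thus not upstream of the whole gene. Aldoc has 2 RefSeq starts, and the window of the first is printed. Capitals mark matches to the core of the NFI motif (TTGGC or GCCAA on the printed strand) and of the SOX motif (ACAAT or ATTGT). NFI and SOX proteins are families of transcription factors that act in the formation of astrocytes.
Slc1a2, chr2:102706188-102706355, plus strand: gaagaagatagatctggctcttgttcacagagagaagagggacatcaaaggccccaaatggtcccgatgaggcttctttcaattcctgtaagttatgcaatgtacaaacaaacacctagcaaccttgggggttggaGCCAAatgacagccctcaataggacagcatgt
Slc1a3, chr15:8710808-8711057, minus strand: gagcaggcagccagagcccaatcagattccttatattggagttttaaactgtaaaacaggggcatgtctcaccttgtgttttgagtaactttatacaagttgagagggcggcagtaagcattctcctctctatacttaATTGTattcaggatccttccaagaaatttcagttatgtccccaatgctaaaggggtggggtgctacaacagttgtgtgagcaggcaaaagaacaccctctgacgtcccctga
Gja1, chr10:56377050-56377299, plus strand: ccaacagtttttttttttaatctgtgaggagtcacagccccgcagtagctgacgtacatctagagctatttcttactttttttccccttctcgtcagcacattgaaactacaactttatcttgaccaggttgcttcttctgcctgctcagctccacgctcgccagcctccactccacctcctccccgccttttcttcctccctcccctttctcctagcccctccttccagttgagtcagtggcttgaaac
Gjb6, chr14:57133612-57133861, minus strand: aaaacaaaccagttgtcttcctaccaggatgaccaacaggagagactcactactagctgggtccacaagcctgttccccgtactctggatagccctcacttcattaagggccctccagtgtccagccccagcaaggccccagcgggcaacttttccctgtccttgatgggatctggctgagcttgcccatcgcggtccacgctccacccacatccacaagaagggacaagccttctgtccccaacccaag
Aldoc, chr11:78322823-78322967, plus strand: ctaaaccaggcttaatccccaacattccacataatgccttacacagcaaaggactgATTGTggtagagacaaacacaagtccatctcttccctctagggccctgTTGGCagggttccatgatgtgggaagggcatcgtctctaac
Of the 9 members, 8 had an entry in the RefSeq table. In the whole 250 bases upstream, an NFI core match was present in 4 of the 8 (Slc1a2, Glul, Kcnj10 and Aldoc), against 41.9% of 27025 promoters of the same length. In Glul and Kcnj10 these matches overlapped the CCAAT box (CCAAT or ATTGG), which was itself present in 4 members and in 34.5% of promoters. A SOX core match was present in 2 members, Slc1a3 and Aldoc, against 28.3%. The GC box (GGGCGG or CCGCCC) was found in 5 members and 32.9% of promoters, and the TATA box (TATAAA or TTTATA) in Slc1a3 and 13.0% of promoters. Aldoc was counted by its first RefSeq start, as its second held 0 NFI, SOX and GC box matches. Gja1 and Gjb6 held none of these 5 motifs in the window. The GC content of the windows ran from 44.8% in Slc1a2 and Slc1a3 to 64.8% in Glul, around a median of 52.0% over all promoters.

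Expression is given in FPKM, the fragments of a gene corrected for its length in kilobases and for library size, as deposited, so levels can be compared between genes as well as between samples. The fragments recovered from the table numbered 17077780 to 24452419 per sample, and 3 fragments on a gene of 1 kilobase stood for 0.103 to 0.187 FPKM. Intervals and floors from fragment numbers cover counting error only. Levels in bulk RNA cannot tell fewer cells of a type apart from less RNA per cell. Defining markers of other cell types differed strongly between groups. Acta2, an actin of smooth muscle and myofibroblasts, was at 1848 ± 231 FPKM (SD, n = 3) and the collagen Col1a1 at 158 ± 24.2 in ASTs, and the myelin gene Mbp was at 5271 ± 347 in P56-NPCs, beside Gfap of astrocytes at 29.9 ± 2.30 in ASTs and 211 ± 15.4 in P56-NPCs. A-iSC replicate 3 and AST replicate 2 departed from their groups by gene length. In genes under 2 kb, A-iSC replicate 3 lay at a median of -0.17 on the log2 scale from the other replicates, and in genes of 5 kb and over at 0.14. For AST replicate 2 the same medians were 0.18 and -0.11. Member differences without these libraries are given with the counts of members called.

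Slc1a2, Slc1a3, Glul, Kcnj10, Gja1, Gjb6 and Aldoc had their highest mean in P56-NPCs, and Aqp4 and Aldh1l1 in A-iSCs. The lowest mean lay in ASTs for Slc1a2, Slc1a3, Glul, Gjb6 and Aldoc, and in P0-NPCs for Kcnj10, Aqp4, Gja1 and Aldh1l1. Summed over the 9 genes, the level was 169 to 188 FPKM in ASTs, 782 to 1364 in A-iSCs, 4520.3 to 5029 in P56-NPCs and 304 to 349 in P0-NPCs. Groups were compared 2 at a time with limma on log2(FPKM + 1), over genes with a mean of at least 1 FPKM in either group, and a difference was called where the p, adjusted by Benjamini-Hochberg across all genes tested, was under 0.05. A fold change on this scale understates that of genes near or under 1 FPKM. A gene with a mean under 1 FPKM in 1 group entered only through the other, so its direction was fixed by the filter.

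**Figure D1:**
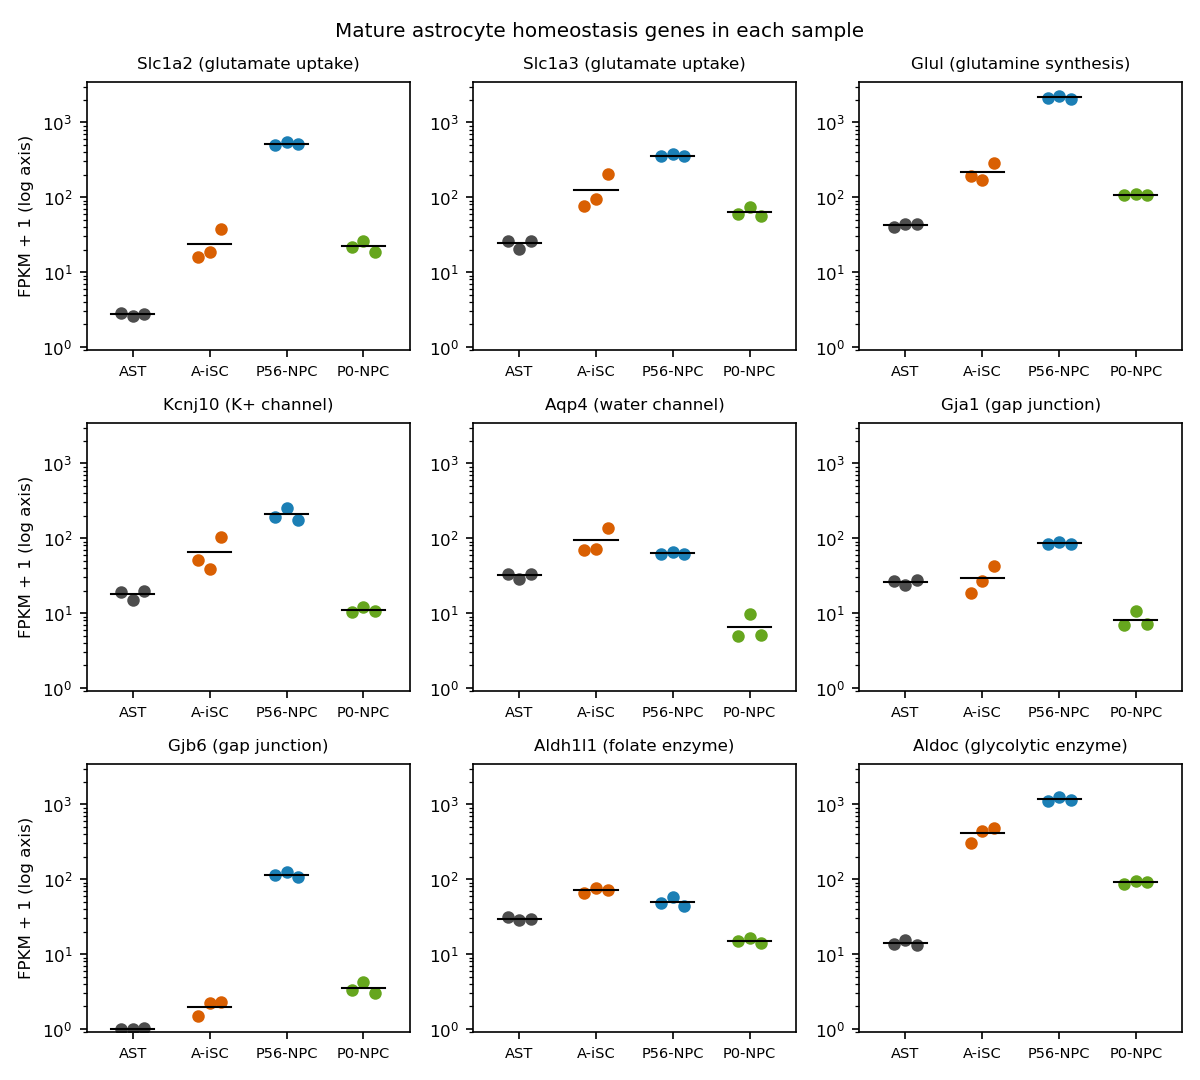
Level of each member in each of the 12 samples, as FPKM + 1 on a log axis; points are samples in the order of their replicate numbers and bars are group means (n = 3). Each panel holds the 4 groups side by side. The P56-NPC samples lie above every other sample for Slc1a2, Slc1a3, Glul, Kcnj10, Gja1, Gjb6 and Aldoc.

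Slc1a2 (ENSMUSG00000005089, chr2:102658659-102790784, plus strand) encodes GLT-1, the main glutamate transporter of adult astrocytes. It measured 1.82, 1.57 and 1.76 FPKM in ASTs, 14.7, 17.8 and 36.6 in A-iSCs, 501, 552 and 505 in P56-NPCs, and 20.4, 25.3 and 17.4 in P0-NPCs. A-iSC and P0-NPC samples overlapped, and both groups lay between ASTs and P56-NPCs without overlap with either. Compared with ASTs, Slc1a2 was upregulated in A-iSCs by 3.04 on the log2 scale (SE 0.30, adjusted p = 0.000156), from a mean of 1.72 ± 0.131 to 23.0 ± 11.8 FPKM (SD, n = 3). The level of A-iSCs was 4.54 below that of P56-NPCs on the log2 scale (log2 fold change -4.54, SE 0.31, adjusted p = 1.86e-05), and 22.6 times as much was measured in P56-NPCs as in A-iSCs. Against P0-NPCs the log2 difference of A-iSCs was 0.03 (95% interval -0.70 to 0.76, adjusted p = 0.936), an interval that leaves room for a difference of either sign. Its sign was negative without A-iSC replicate 3 (-0.34), without P0-NPC replicate 3 (-0.09) and with scaling by library size alone (-0.04).

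Slc1a3 (ENSMUSG00000005360, chr15:8634124-8710764, minus strand) encodes GLAST, the transporter that precedes GLT-1 in development and is also found in neural stem cells. Its FPKM were 24.9, 19.6 and 25.3 in ASTs and 74.8, 93.2 and 205 in A-iSCs. P56-NPCs measured 352, 374 and 349 and P0-NPCs 57.7, 72.4 and 55.1. No groups overlapped, although A-iSC replicate 1 lay just above P0-NPC replicate 2. A-iSCs exceeded ASTs by 2.24 on the log2 scale (SE 0.35, adjusted p = 0.00148) and fell short of P56-NPCs (log2 fold change -1.66, SE 0.35, adjusted p = 0.00494). The difference from P0-NPCs was 0.87 (95% interval 0.07 to 1.68, adjusted p = 0.0567). It was called in 5 of the 14 alternative fits, among them those without A-iSC replicate 1 (1.16, adjusted p = 0.0173) or replicate 3 (0.44, adjusted p = 0.0295). Over all its alternatives the adjusted p ran from 0.0159 to 0.151. Fragments of the overlapping gene Gm37310, on the same strand, numbered up to 169 in a sample, against 3397 or more for Slc1a3.

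Glul (ENSMUSG00000026473, chr1:153899944-153909723, plus strand) encodes glutamine synthetase, which turns glutamate and ammonia into glutamine. The 3 ASTs held 39.0, 42.8 and 42.5 FPKM and the 3 A-iSCs 190.5, 170.3 and 287. In P56-NPCs it reached 2103, 2263 and 2069.9, at ranks 18 to 20 among all genes of a sample, and in P0-NPCs 107, 109.7 and 105. The 4 groups kept apart, in the order P56-NPC, A-iSC, P0-NPC and AST, and every neighbouring step was called. The antisense gene Teddm2 overlaps Glul and held up to 112 fragments in a sample. Compared with ASTs the log2 fold change of A-iSCs was 2.32 (SE 0.20, adjusted p = 8.89e-05). Compared with P0-NPCs it was 0.97 (SE 0.20, adjusted p = 0.0034), and compared with P56-NPCs -3.34 (SE 0.21, adjusted p = 1.24e-05).

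Kcnj10 (ENSMUSG00000044708, chr1:172341210-172374085, plus strand) encodes Kir4.1, the inward rectifier through which astrocytes take up potassium. ASTs measured 17.9, 14.0 and 18.9 FPKM and A-iSCs 50.7, 37.4 and 104. P56-NPCs measured 192, 251 and 176, and P0-NPCs 9.26, 11 and 9.65. The P0-NPC samples thus lay below all ASTs, the reverse of what the glutamate genes showed. A-iSCs exceeded ASTs by 1.74 on the log2 scale (SE 0.35, adjusted p = 0.00449) and P0-NPCs by 2.44 (SE 0.33, adjusted p = 0.000372), and were lower than P56-NPCs (-1.79, SE 0.36, adjusted p = 0.004). P0-NPCs were lower than ASTs by a log2 fold change of -0.70 (SE 0.12, adjusted p = 0.00102).

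Aqp4 (ENSMUSG00000024411, chr18:15389496-15410982, minus strand) encodes the water channel of astrocyte endfeet and of ependymal cells. ASTs had 32.7, 27.5 and 32.3 FPKM and A-iSCs 69.3, 71.1 and 137. P56-NPCs had 60.2, 64.2 and 61, below each A-iSC sample, and P0-NPCs 4.0, 8.69 and 4.10, below each AST. Aqp4 was upregulated in A-iSCs compared with ASTs (log2 fold change 1.48, SE 0.26, adjusted p = 0.00264) and P0-NPCs (3.82, SE 0.34, adjusted p = 3.86e-05), and the difference from P0-NPCs was the largest of the members in that comparison. The difference from P56-NPCs was 0.50 (95% interval -0.11 to 1.11, adjusted p = 0.131) and was not called. It passed with scaling by library size alone (1.05, adjusted p = 0.0079) and without A-iSC replicate 3 (0.18, adjusted p = 0.039), and its adjusted p ranged from 0.0079 to 0.247 over the alternatives. The antisense gene Gm50048 overlaps Aqp4, and because no strand setting is stated its fragments, up to 140 in a sample, could not be told apart from those of Aqp4 by strand.

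Gja1 (ENSMUSG00000050953, chr10:56377330-56402513, plus strand) encodes connexin 43, which astrocytes share with many other cell types, fibroblasts and mural cells among them. It measured 25.5, 22.6 and 26.4 FPKM in ASTs and 17.7, 25.6 and 41.6 in A-iSCs, and these ranges overlapped. P56-NPCs held 83.2, 89.2 and 81.5 and P0-NPCs 5.83, 9.60 and 6.06. Gja1 was the only tested member that was not called between A-iSCs and ASTs, with a log2 fold change of 0.10 (95% interval -0.55 to 0.75, adjusted p = 0.773). Without A-iSC replicate 3 it was -0.21 (adjusted p = 0.315) and with upper-quartile scaling -0.02. A-iSCs had less Gja1 than P56-NPCs (-1.63, SE 0.27, adjusted p = 0.00179) and more than P0-NPCs (1.79, SE 0.30, adjusted p = 0.00125).

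Gjb6 (ENSMUSG00000040055, chr14:57123303-57133611, minus strand) encodes connexin 30, the connexin that astrocytes gain later than connexin 43. ASTs are listed at 0, 0 and 0.0201 FPKM, which is 1 fragment over all 3 libraries. A-iSCs measured 0.501, 1.20 and 1.27 FPKM from 27 to 91 fragments a sample, and P0-NPCs 2.29, 3.24 and 2.01. P56-NPCs measured 113, 124 and 105. The P56-NPC level was therefore 115 times that of A-iSCs (log2 fold change of A-iSCs -5.88, SE 0.17, adjusted p = 5.54e-07). A-iSCs were lower than P0-NPCs as well (-0.83, SE 0.20, adjusted p = 0.00753), which held for no other member. Gjb6 missed the filter for A-iSCs and ASTs with a mean of 0.989 FPKM and was not tested there. The 194 fragments of A-iSCs and the 1 fragment of ASTs gave a ratio of 153 once scaled for library size (95% interval for counting error 27.1 to 6055). With no filter the log2 fold change was 0.96 (SE 0.17, adjusted p = 0.0073). Fitted fold changes against ASTs depend on the pseudocount of 1 FPKM and are not bounds.

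Aldh1l1 (ENSMUSG00000030088, chr6:90486427-90600203, plus strand) encodes a folate enzyme that is used as a marker of astrocytes across brain regions. ASTs held 29.8, 27.2 and 28.7 FPKM, A-iSCs 64.8, 76.4 and 70.7, P56-NPCs 47.5, 57.0 and 42.5, and P0-NPCs 14.0, 15.3 and 13.1. The spread within A-iSCs was narrow here, and replicate 3 lay between the other two. All 6 comparisons were called. A-iSCs exceeded ASTs by 1.27 on the log2 scale (SE 0.12, adjusted p = 0.000106), P0-NPCs by 2.24 (SE 0.12, adjusted p = 2.66e-06) and P56-NPCs by 0.53 (SE 0.13, adjusted p = 0.0124). It was the only member called higher in A-iSCs than in P56-NPCs, and without P56-NPC replicate 1 that call was lost (0.51, adjusted p = 0.0521, range over the alternatives 0.000302 to 0.0521).

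Aldoc (ENSMUSG00000017390, chr11:78322968-78327781, plus strand) encodes aldolase C, the glycolytic aldolase of brain. It measured 12.8, 14.2 and 12.1 FPKM in ASTs, 299, 439 and 480.5 in A-iSCs, 1116, 1254 and 1131 in P56-NPCs and 85.5, 93.4 and 91.3 in P0-NPCs. No groups overlapped. The A-iSC mean of 406 ± 94.9 was 31.1 times the AST mean of 13.0 ± 1.04 (SD, n = 3; log2 fold change 4.83, SE 0.19, adjusted p = 5.07e-06), which placed Aldoc at rank 7 from the top among 14087 genes tested. P56-NPCs exceeded A-iSCs by a factor of 2.87 (log2 fold change of A-iSCs -1.55, SE 0.20, adjusted p = 0.000432), and A-iSCs exceeded P0-NPCs by 2.13 on the log2 scale (SE 0.19, adjusted p = 4.17e-05).

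Between A-iSCs and ASTs, 7 of the 8 members tested were higher in A-iSCs and 0 were lower, while 25.2% of all genes tested were higher and 29.6% lower. The median log2 fold change was 1.99 over the 8 members and -0.06 over all genes. The 6 members other than Gja1 and Aldoc lay between 1.27 and 3.04. All 7 were also called in the fit without A-iSC replicate 3, where the log2 fold changes were 2.66 for Slc1a2, 1.81 for Slc1a3, 2.09 for Glul, 1.32 for Kcnj10, 1.17 for Aqp4, 1.27 for Aldh1l1 and 4.70 for Aldoc. Without AST replicate 2 the same 7 were called, from 1.24 for Aldh1l1 to 4.89 for Aldoc, with Gja1 at 0.04 (adjusted p = 0.931). Between A-iSCs and P56-NPCs, 7 of 9 members were lower in A-iSCs against 30.9% of all genes, and 1 was higher against 30.1%. Gjb6, at 0.989 FPKM in A-iSCs, passed the filter here and against P0-NPCs only through the NPC group. It could therefore only count as lower in A-iSCs. The median was -1.66 over members and 0.03 over all genes. Without A-iSC replicate 3 the 7 were called lower as well, from -1.68 for Aldoc to -5.98 for Gjb6, with Slc1a3 at -2.09 and Kcnj10 at -2.20. Between A-iSCs and P0-NPCs, 6 members were higher in A-iSCs (31.5% of all genes), Gjb6 was lower (33.6%) and 2 were not called, with medians of 1.79 and -0.02. Without A-iSC replicate 3 the 6 were called again, from 0.74 for Glul to 3.50 for Aqp4, and Gjb6 was at -0.94 (adjusted p = 0.00428).

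**Figure D2:**
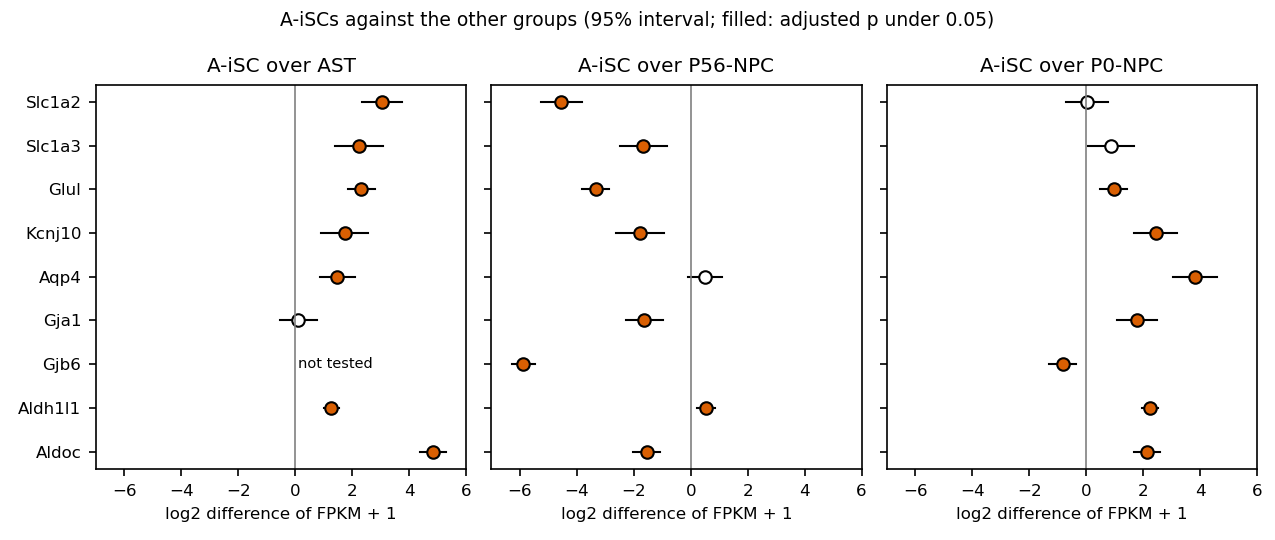
Log2 difference of FPKM + 1 of A-iSCs over each other group for the 9 members, with 95% intervals from limma; filled points passed an adjusted p under 0.05 and open points did not. The 8 members tested lie at or right of 0 against ASTs, and 7 of 9 lie left of 0 against P56-NPCs, with Gjb6 at -5.88.

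P56-NPCs and P0-NPCs were also set against ASTs, and these comparisons share the AST samples. All 9 members were higher in P56-NPCs than in ASTs (39.1% of all genes were, and 39.8% were lower), from 0.75 for Aldh1l1 (SE 0.11, adjusted p = 0.000651) and 0.98 for Aqp4 to 7.58 for Slc1a2 (SE 0.08, adjusted p = 4.53e-09), with a median of 3.90. In P0-NPCs the set split. Slc1a2 (3.01), Aldoc (2.70), Gjb6 (1.79), Slc1a3 (1.37) and Glul (1.35) were higher than in ASTs, where 38.1% of all genes were, and Aqp4 (-2.34), Gja1 (-1.69), Aldh1l1 (-0.97) and Kcnj10 (-0.70) were lower, where 40.9% of all genes were. All 9 members were higher in P56-NPCs than in P0-NPCs (39.7% of all genes were higher and 39.0% lower), from 1.71 for Aldh1l1 to 5.05 for Gjb6. Without AST replicate 2 every member kept its call against ASTs in both NPC groups, from 0.71 for Aldh1l1 to 7.54 for Slc1a2 in P56-NPCs and from -2.42 for Aqp4 to 2.97 for Slc1a2 in P0-NPCs.

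The scaling between samples that was built into the deposited values bears on these counts. Of the genes called between A-iSCs and ASTs, 46.0% had the higher level in A-iSCs, with scaling by library size alone 60.4% did, and with upper-quartile scaling 37.9%. From the deposited scaling to that by library size, the share went from 49.4% to 74.4% for A-iSCs against P56-NPCs, from 48.3% to 44.2% for A-iSCs against P0-NPCs, from 50.4% to 26.7% for P56-NPCs against P0-NPCs, from 48.2% to 59.4% for P0-NPCs against ASTs, and from 49.5% to 37.7% for P56-NPCs against ASTs. With library-size scaling the median over all genes was 0.49 for A-iSCs against P56-NPCs and -0.53 for P56-NPCs against P0-NPCs, and in the other comparisons with ASTs between -0.34 and 0.21. The members called lower in A-iSCs than in P56-NPCs still numbered 7, and all 9 were still higher in P56-NPCs than in P0-NPCs.

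Ratios within functional pairs were computed for each sample. The ratio of Slc1a2 to Slc1a3 was 0.0743 ± 0.00526 in ASTs, 0.188 ± 0.00955 in A-iSCs, 0.340 ± 0.0211 in P0-NPCs and 1.45 ± 0.0271 in P56-NPCs (SD, n = 3). A-iSC replicate 3, the highest of its group for both genes, had a ratio of 0.178 beside 0.197 and 0.190. Slc1a2 exceeded Slc1a3 in all 3 P56-NPC samples and in 0 of the other 9. Gjb6 to Gja1 was 0.000254 in ASTs, 0.0352 ± 0.0101 in A-iSCs, 0.354 ± 0.0338 in P0-NPCs and 1.35 ± 0.0548 in P56-NPCs. Aldoc to its relative Aldoa was 0.0384 ± 0.00494 in ASTs, 1.27 ± 0.702 in A-iSCs, 1.35 ± 0.142 in P0-NPCs and 4.63 ± 0.288 in P56-NPCs. In A-iSCs it was 0.721, 1.03 and 2.06, so Aldoc lay below Aldoa in 1 sample and above it in 2. Aldoa itself differed between groups, with means of 346 FPKM in ASTs, 358 in A-iSCs, 252 in P56-NPCs and 67.2 in P0-NPCs. A-iSCs exceeded P0-NPCs in Aldoa by 2.35 on the log2 scale (limma, adjusted p = 7.71e-05). Glul to Slc1a3 overlapped between 3 groups, at 1.92 ± 0.581 in A-iSCs, 1.81 ± 0.325 in ASTs and 1.76 ± 0.214 in P0-NPCs, and was 5.98 ± 0.0657 in P56-NPCs. Where the ranges did not overlap, an exact two-sided permutation test gave p = 0.1, the smallest that 3 samples against 3 allow, and 0.124 after Benjamini-Hochberg adjustment over 21 tests, so none could pass 0.05. For the overlapping ranges the exact permutation p was 0.7 (Aldoc to Aldoa in A-iSCs and P0-NPCs) and 0.9 (the 3 comparisons of Glul to Slc1a3). Gjb6 to Gja1 was not tested against ASTs, where Gjb6 was at or near 0.

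**Figure D3:**
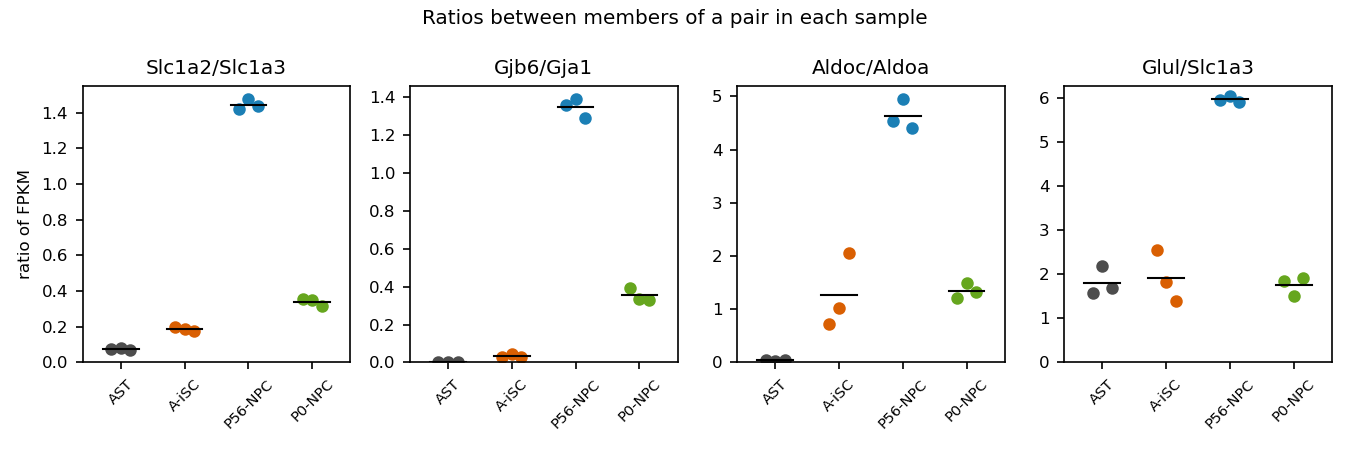
Ratio of the FPKM of 2 genes in each sample on a linear axis; points are samples and bars are group means (n = 3). P56-NPCs stand above the other groups in all 4 ratios, and the Slc1a2 to Slc1a3 ratio orders the groups as ASTs, A-iSCs, P0-NPCs and P56-NPCs.

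Relatives of the members from the same gene families were described alongside. Of 21 relatives, 13 were tested between A-iSCs and ASTs, and 4 were higher, 4 lower and 5 not called, with a median of 0.01. These shares were near the 25.2% higher and 29.6% lower of all genes tested. The 4 called higher (Slc1a1, Kcnj16, Gjb2 and Gjc3) passed the filter only through A-iSCs. Of the 4 called lower, all but Gjc1 passed only through ASTs, so the filter fixed these directions. The glutamate transporter Slc1a1 rose from 0.189 ± 0.00773 to 2.61 ± 0.248 FPKM (log2 fold change 1.60, adjusted p = 2.67e-05) and Slc1a6, the transporter of Purkinje cells, fell from 4.95 ± 0.313 to 0.192 ± 0.0581 (-2.32, adjusted p = 6.87e-06). The neutral amino acid carriers Slc1a4 (0.01) and Slc1a5 (-0.08) were not called. Kcnj16, which forms channels together with Kir4.1, rose from 0.240 ± 0.0544 to 1.89 ± 0.859 (1.18, adjusted p = 0.00234) and was at 33.8 ± 4.07 in P56-NPCs. Kcnj12 (-0.98) and Aqp1 (-0.81) fell, the call of Aqp1 being lost with all 4 groups in the fit (adjusted p = 0.117), and Kcnj2 was not called (-0.08). Among connexins Gjc3 rose from 0.00789 to 3.25 ± 0.661 FPKM (2.06, adjusted p = 2.56e-05) and Gjb2 from 0.520 to 1.24 (0.56, adjusted p = 0.0253), while Gjc1 fell from 3.00 to 1.72 (-0.55, adjusted p = 0.00571). The oligodendrocyte connexin Gjb1 was at 46.7 ± 2.60 FPKM in P56-NPCs and at or under 0.239 in the means of the other groups. Gjd2, the connexin of neurons, was listed at 0 in all ASTs and at 2.58 ± 0.379 in P0-NPCs. Aldoa (346 ± 76.0 in ASTs, 358 ± 108 in A-iSCs, log2 fold change 0.02) and Aldh1l2 (0.84, 95% interval -0.03 to 1.71, adjusted p = 0.0911) were not called. Aldh1l2 was called with the replicate block (adjusted p = 0.0243) and with all 4 groups in the fit (adjusted p = 0.026). Aqp9 and Aqp11 were under 1 FPKM in both groups and were not tested. The sign of Slc1a4, Slc1a5, Kcnj2 and Aldoa turned with scaling or with a sample left out, and the call of Gjb2 was lost with no filter and without A-iSC replicate 2 or AST replicate 2 or 3.

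The pathways around the members were described by lists of further genes. In the transmitter cycle, 8 of 13 tested genes had more RNA in A-iSCs than in ASTs and 2 had less (median 0.93), with the largest differences in the mitochondrial glutamate carrier Slc25a18 (2.65, adjusted p = 7.42e-06, 9.08 to 62.3 FPKM), the GABA transporter Slc6a11 (2.40, adjusted p = 0.000269, 0.0598 to 4.91 FPKM) and the cystine-glutamate exchanger Slc7a11 (1.83, adjusted p = 5.78e-05). Of the partners in potassium and water handling, 9 of 16 were higher and 2 lower (median 0.90). Among them were the sodium pump subunit Atp1b2 (3.67, adjusted p = 3.65e-06, 13.1 to 179 FPKM) and the receptor Gpr37l1 (3.58, adjusted p = 6.15e-06, 2.66 to 43.1 FPKM). Of the gap junction partners, 1 of 6 was higher and 3 were lower (median -0.47), beside 25.2% higher and 29.6% lower over all genes tested, and those lower included the caveolin Cav1 (-2.47, adjusted p = 2.04e-05, 154 to 27.2 FPKM) and N-cadherin Cdh2 (-1.57, adjusted p = 0.000106, 108 to 35.7 FPKM).

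Of the genes of astrocyte metabolism, 7 of 20 were higher and 8 lower (median -0.13), and the largest differences called were those of the lipase Pla2g7 (3.91, adjusted p = 8.18e-06), the glycogen regulator Ppp1r3c (2.92, adjusted p = 0.000363) and Cbs of cysteine synthesis (2.07, adjusted p = 1.83e-05). Of other astrocyte marker genes, 12 of 18 were higher and 2 lower (median 1.46). The neurotensin receptor Ntsr2 went from 0.0870 to 39.1 ± 11.8 FPKM (5.16, adjusted p = 5.07e-06), the intermediate filament Gfap from 29.9 ± 2.30 to 970 ± 448 (4.88, adjusted p = 1.72e-05) and the lipid carrier Apoe from 589 ± 107 to 10899 ± 1787 (4.21, adjusted p = 1.57e-05). Gfap and Apoe were also higher in A-iSCs than in P56-NPCs, by 2.10 (adjusted p = 0.000709) and 1.51 (adjusted p = 0.000355), where 7 of the 9 members were lower, but Ntsr2 was lower in A-iSCs (-2.0, adjusted p = 0.000215, 39.1 against 155 FPKM). Of the 20 genes of this list tested in that comparison, 3 were higher in A-iSCs (30.1% of all genes) and 15 lower (30.9% of all genes), with a median of -1.53. Apoe is made by microglia as well. Of the transcription factors of astrocytes, 8 of 12 were higher and 1 lower (median 0.82), with Hes5 (2.59, adjusted p = 4.2e-05), Nfia (1.64, adjusted p = 4.97e-05) and Dbx2 (1.59, adjusted p = 3.81e-05) the farthest. Over all genes tested between A-iSCs and ASTs, 25.2% were higher and 29.6% lower, with a median of -0.06. Cbs, Ntsr2, Hes5 and Dbx2, and Slc6a11 of the transmitter cycle, were under 1 FPKM in ASTs and passed the filter only through A-iSCs.

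**Figure D4:**
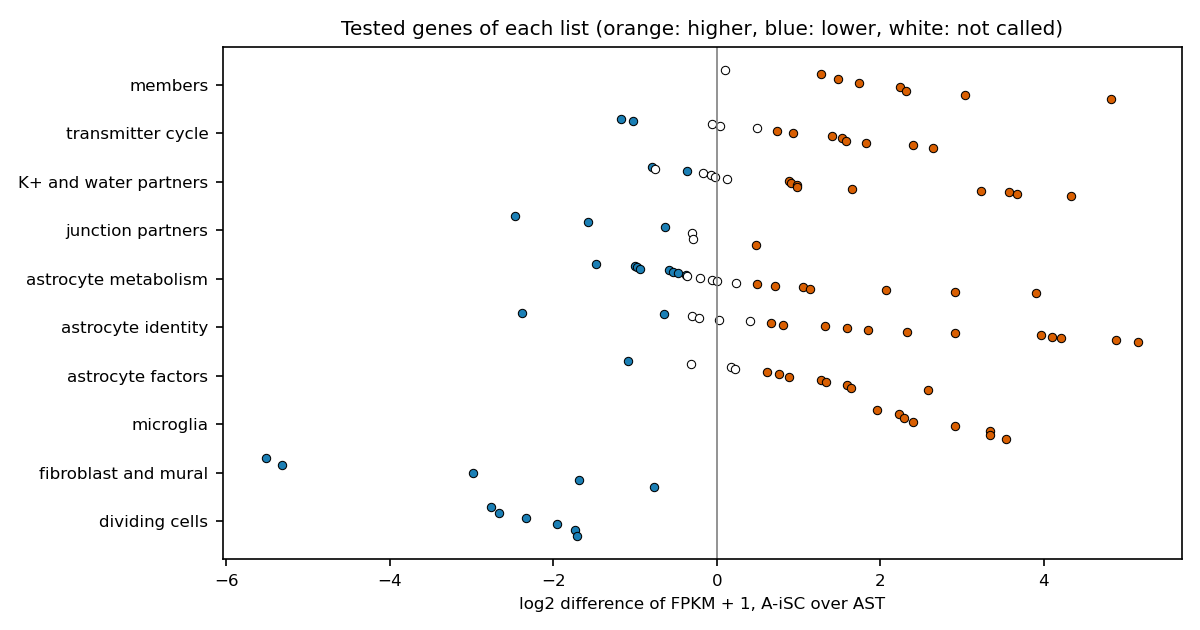
Log2 difference of FPKM + 1 of A-iSCs over ASTs for the tested genes of each list, with 1 point per gene; orange points were called higher, blue points lower and white points not called. Members lie from 0.10 to 4.83, all 8 microglia markers are right of 0, and all fibroblast, mural and dividing-cell markers tested are left of 0.

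Markers of other cell types moved along with the members. Over all genes tested between A-iSCs and ASTs, 25.2% were higher and 29.6% lower. From ASTs to A-iSCs the summed level of 8 fibroblast and mural markers went from between 1884 and 2269 FPKM to between 33.8 and 67.0. Acta2 (1848 to 41.6 FPKM) and Col1a1 (158 to 2.98 FPKM) made up most of the sum in ASTs. None of the 8 was at 0 in every sample of either group, and all 5 that were tested were lower. The sum of 6 genes of dividing cells went from between 111 and 120 to between 19.0 and 21.1 FPKM, all 6 of them lower, with Top2a at -1.96 (adjusted p = 4.44e-05) and Cdk1 at -2.67 (adjusted p = 1.11e-05). Over the same samples 8 microglia markers went from between 144 and 162 to between 1343 and 1697, all 8 of them higher, with C1qa at 1029 ± 192 FPKM in A-iSCs and 87.1 ± 14.1 in ASTs. Oligodendrocyte markers summed to between 19.0 and 20.7 in ASTs and to between 63.0 and 86.9 in A-iSCs, with Mobp at 0 in every AST. Their part in the members' differences was not tested.

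In P56-NPCs the 8 oligodendrocyte markers summed to between 12128 and 13975 FPKM, more than the 9 members together, and microglia markers to between 622 and 661. Ependymal markers summed to between 276 and 375 there, against 90.2 to 114 in P0-NPCs, 70.7 to 84.6 in A-iSCs and 43.0 to 51.5 in ASTs. P0-NPCs had the highest neuron markers, between 877 and 1052 against 236 to 287 in P56-NPCs, 88.4 to 124 in ASTs and 52.2 to 70.0 in A-iSCs. Between A-iSCs and ASTs, 2 of the 5 neuron markers tested were higher (25.2% of all genes). Only Stmn2 (53.8 to 7.16 FPKM) was lower (29.6%), and the median was 0.55. Endothelial markers summed to 73.8 to 76.5 in P0-NPCs, where the other groups had at most 6.05. Of the 8 fibroblast and mural markers, 5 were higher in P0-NPCs than in ASTs (38.1% of all genes) and 2 lower (40.9%). The mix of cell types and the level within astrocytes cannot be told apart in these suspensions. Precursor markers of oligodendrocytes summed to between 106 and 128 in ASTs, 147 and 172 in A-iSCs, 551 and 555 in P56-NPCs and 54.3 and 86.6 in P0-NPCs.

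**Figure D5:**
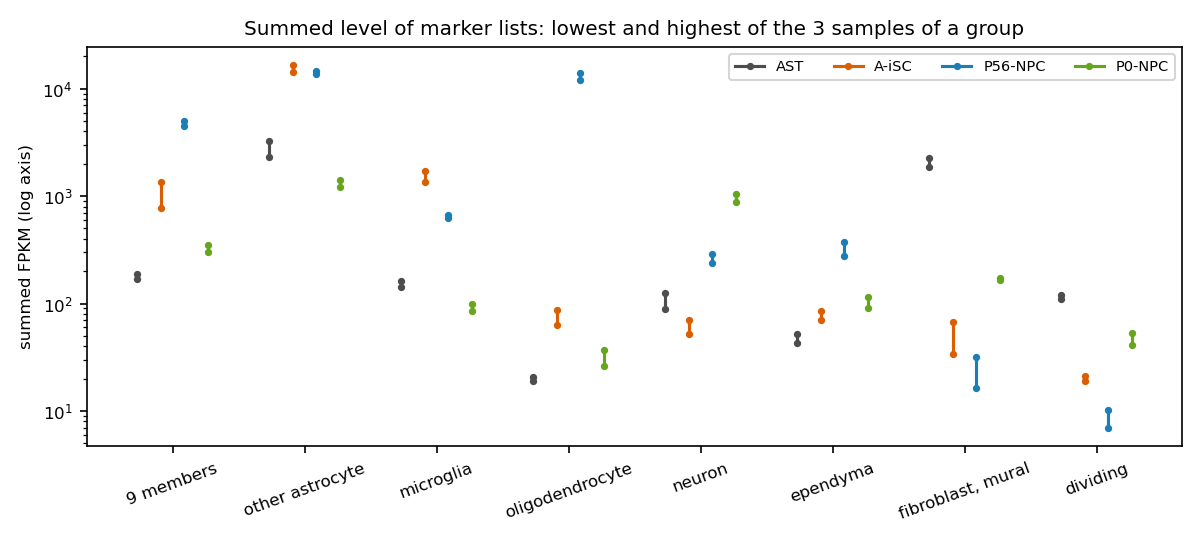
Summed FPKM of the 9 members and of marker lists in each group, on a log axis; the 2 joined points are the lowest and the highest of the 3 samples of a group. From ASTs to A-iSCs the members rise from at most 188 to at least 782 while fibroblast and mural markers go from at least 1884 to at most 67.0. Most of the fibroblast and mural sum in ASTs is Acta2.

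The genes whose profile over the 12 samples lay closest to each member were found by the root mean square difference of centred log2(FPKM + 1), among 10495 genes with a mean of at least 5 FPKM in any group. The values describe these samples only, in which cell types, age and culture differ together. Slc1a2 lay closest to Sparcl1 (0.53), which went from 23.4 FPKM in ASTs to 189.6 in A-iSCs and 1888 in P56-NPCs, then to Ndrg2 (0.58) and Omg (0.65). For Slc1a3 the nearest were Ttyh1 (0.33), Pink1 (0.34) and Nwd1 (0.36), and for Glul they were Omg (0.29), P2ry12 (0.32) and Tmem229a (0.32). Omg is best known from oligodendrocytes and P2ry12 from microglia. Kcnj10 had Gprc5b (0.20), Cyp4f14 (0.28) and Cpe (0.31), and Aqp4 had Papss2 (0.30), Vsir (0.33) and Fbxo2 (0.34). Gja1 lay beside Apln (0.23), Serpine2 (0.26) and Mfap3l (0.28). The neighbours of Gjb6 were Rapgef4 (0.33), Prr18 (0.34) and Tppp (0.36), which reached 186, 202 and 136 FPKM in P56-NPCs and at most 3.77 elsewhere. Aldh1l1 had the closest neighbour of any member, Slc8b1 (0.14), ahead of Oat (0.18) and Cyp4v3 (0.19). Near Aldoc lay Agt (0.45) and Cmtm5 (0.48).

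In some groups 1 replicate was the highest for most members. A-iSC replicate 3 was the highest of its group for 8 of 9 members, all but Aldh1l1, where 42.1% of 16568 genes were highest. P56-NPC replicate 2 and P0-NPC replicate 2 were the highest for 9 of 9 members, against 39.4% and 37.5% of genes. ASTs had no such replicate, with 3, 2 and 4 members highest in replicates 1, 2 and 3, and AST replicate 2 was the lowest for 6 of 9, against 41.4%. In A-iSC replicate 3 the distance from the mean of the other replicates was 1.29 on the log2 scale for Slc1a3, 1.23 for Kcnj10, 1.13 for Slc1a2, 0.95 for Aqp4, 0.93 for Gja1, 0.67 for Glul, 0.41 for Aldoc, 0.32 for Gjb6 and 0.01 for Aldh1l1. Genes of like length had medians between -0.08 and 0.23 in that replicate, smaller than the members' own distance in 8 of the 9. After each sample was centred within 10 classes of gene length, a step added after the data were seen, the same 7 members were called between A-iSCs and ASTs, with Aldoc at 4.90, Slc1a2 at 2.97 and Aldh1l1 at 1.30.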

How the data were processed

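Bulk RNA was sequenced in 12 samples, 3 per group, as paired-end Illumina reads from a kit for which no strand setting is stated. The authors deposited FPKM values for 55862 genes with gene lengths, scaled between samples before deposit. The submitters' processing notes name Bowtie 0.12.2 and mm8, while of the 55154 genes also present in GENCODE M21, 54899 had the same GRCm38 position, so coordinates are given on GRCm38. Each value was a whole number of fragments within 0.01, which gave back fragments per sample. Groups came from the sample labels, and 0 sample columns were left out.

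Pairs of groups were compared with limma 3.58.1 (R 4.3.3) with a mean-dependent prior variance on log2(FPKM + 1), over genes with a mean of at least 1 FPKM in either group, in 6 comparisons. The study's own choice, DESeq2, was not run, and the fit on recovered fragments was limma-voom. Limma was checked on simulated data. Ratios were compared by exact permutation tests (numpy 2.4.6). Alternatives were 2 other scalings, no filter, a pseudocount of 0.1, all 4 groups in the fit, a replicate block, limma-voom on recovered fragments, each replicate left out and, added after the data were seen, centring within 10 classes of gene length. The members and gene lists were chosen with earlier results of these data known. Genes named were all members, their relatives that were tested in any comparison, the 3 largest called differences between A-iSCs and ASTs in each other astrocyte list, the 2 highest genes of each cell type list and any listed at 0 in a whole group, and the 3 closest profiles per member. A few genes that this rule names are not reported here. Top2a and Cdk1 fall under the same rule for dividing cells. Promoters were 250 bases upstream of RefSeq starts. No replicates were duplicates, with a chi-square per degree of freedom between replicates of at least 2.51. No group was large enough for a test of outlying samples.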

Additional observations from a re-analysis of the deposited data

How the results depend on the processing

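Over 14 alternatives to each of the 53 member results, 729 values kept their direction and side of the threshold, 7 became called, 1 lost its call and 5 changed sign. Differences that changed sign were all uncalled. With scaling by library size alone, Slc1a5 (0.05) and Kcnj2 (0.05) turned for A-iSCs against ASTs and Slc1a2 (-0.04) for A-iSCs against P0-NPCs. With upper-quartile scaling Gja1 (-0.02), Slc1a4 (-0.11) and Aldoa (-0.11) turned. Aldoa was also -0.11 without A-iSC replicate 1, -0.13 without A-iSC replicate 2, -0.05 without AST replicate 1 and -0.08 without AST replicate 3. Without A-iSC replicate 3, Gja1 was -0.21, Slc1a4 -0.25, Slc1a5 0.08 and, against P0-NPCs, Slc1a2 -0.34. Slc1a4 was -0.09 without AST replicate 2, and Slc1a2 -0.09 without P0-NPC replicate 3. Members higher in A-iSCs than in P56-NPCs numbered 2 with library-size scaling and 0 to 2 with a replicate left out, 2 without A-iSC replicate 3 and 0 without P56-NPC replicate 1, against 1 as reported. Library-size scaling gave 8333 genes higher and 2860 lower for A-iSCs against P56-NPCs (4532 and 4643 as reported) and 3441 and 9432 for P56-NPCs against P0-NPCs (6115 and 6011). With no filter 8597 genes were higher in P0-NPCs than in ASTs (5713 as reported), since more genes are tested. With a pseudocount of 1 the Slc1a2 to Slc1a3 ratio in ASTs was 0.113, and Gjb6 to Gja1 was 0.436 in P0-NPCs, 0.072 in A-iSCs and 0.0391 in ASTs. Upper-quartile scaling moved the median of all genes to between -0.17 and -0.16 in the 3 comparisons with ASTs. Samples with the same replicate number did not deviate together in every pair (correlations of -0.41, 0.35 and 0.45 for A-iSCs and ASTs). With the replicate block, A-iSCs exceeded ASTs for 7 members, as reported, and for 3694 genes, with 4250 genes lower (3550 and 4165), and no member call changed. The cause of these shifts was not tested, other than where the alternative itself changes the genes tested. With each replicate left out in turn, these differences reached at most 0.38 for Gja1, 0.17 for Slc1a4, 0.30 for Aldoa and 0.28 for Slc1a2, and at least -0.22 for Slc1a5. Depth limited Gjb6 in ASTs, where 1 fragment was counted.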
